A study of Homo sapiens with 6 samples.

Results

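The genes described here encode the factors that start and elongate protein synthesis, and the data are counts of engaged RNA polymerase over each gene. Members were chosen by name: every interval of the deposited table whose gene name begins with EIF1 to EIF6, EEF1 or EEF2, carries no antisense or intronic-transcript suffix, and has at least 10 counts in any library. The rule gave 98 of the 20333 intervals in the table. Of these, 69 are genes for a factor, a kinase or methyltransferase named for a factor, or a factor-binding protein (called factor genes below), 27 are pseudogenes and 2 are divergent transcripts. A further 7 intervals matched by name but stayed under 10 counts. Just inside the threshold were EEF1A1P10 and EIF5AP3, each with at most 13 counts, and EIF5AL1 with at most 14. Just outside were EIF5AP2 with 8 and EEF1GP1 and EEF1A1P25 with 7. The test was run on 97 of the 98 members and on 68 of the 69 factor genes, since EIF5AL1 did not pass the filter on low counts.

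T47D is an established luminal breast cancer line that expresses the oestrogen receptor. It was exposed for 5 h to the DMSO vehicle, to 500 nM GDC0068 (ipatasertib, an inhibitor of the catalytic activity of AKT) or to 100 nM of the AKT degrader INY-05-040, which the labels' treatment field calls Degrader. All arms were kept in medium with growth factors, and each arm has 2 libraries, numbered 1 and 2, from 2 independent experiments. The doses differ because the submitters chose them to suppress signalling below AKT to a like extent. The comparison asks how nascent transcription responds to blocking the kinase and to removing it. Precision nuclear run-on sequencing (PRO-seq) maps polymerases that are transcribing at harvest, so its counts follow synthesis of RNA and not the amount of mature mRNA or protein. The counts can also include polymerase held near the start, whose share was not measured. A change in that share cannot be told apart here from a change in synthesis. The libraries are bulk, so a change in some of the cells and a smaller change in every cell cannot be told apart, and the results hold for this line only.

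Initiation begins when eIF4E, within the eIF4F complex, binds the mRNA cap and eIF4A unwinds the leader, while eIF2 brings the initiator tRNA to the small ribosomal subunit held open by eIF3, eIF1 and eIF1A. Elongation then depends on eEF1A, which delivers aminoacyl-tRNA and is recharged with GTP by the eEF1B subunits, and on eEF2, which moves the ribosome along. AKT acts on this machinery through mTORC1, which phosphorylates 4E-BP and S6 kinase, and mRNAs that begin with a terminal oligopyrimidine (TOP) tract, among them many elongation factor mRNAs, are translated under the control of that pathway. The counts here report on transcription of these genes, which is a separate step from that translational control.

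Library totals ran from 25371819 to 32192576 counts, and the median factor gene had 1671 counts in a library, a counting error of 2.45%. Duplicate reads were not identified here, so this error covers counting only. Libraries of 1 arm differed by more than counting noise, with a chi-square per degree of freedom of 4.93 in DMSO, 6.84 under GDC0068 and 5.50 under Degrader, and none was a copy of another. Of the markers listed for the check of the cell line, all 7 luminal ones (ESR1, PGR, GATA3, FOXA1, KRT8, KRT18 and EPCAM) were detected in every library, at 29.9 to 1439 CPM (counts per TMM-scaled library total). The 6 markers of other cell types on that list were not analysed here.

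Relative to the bulk of genes, factor genes as a set were transcribed less under both compounds. After Degrader, 31 of 68 factor genes fell and 1 rose, in edgeR's quasi-likelihood test at an adjusted p under 0.05, while 36 did not pass it. Falls made up 45.6% of the factor genes, while over all 19902 genes tested 7.88% fell and 7.39% rose, a near equal split. The median factor gene had 1671 counts in a library, against library medians of 616 to 761 over all intervals of the table. The shares here and below were not matched for coverage, and its part in the differences was not tested. The median log2 fold change was -0.18 over the 68 factor genes and -0.0014 over all genes. In 57 of the 68 the log2 fold change was below 0, against 50.3% of all genes. In 53, both Degrader libraries lay below both DMSO libraries, an arrangement seen in 29.2% of all genes. The 31 falls were modest: their log2 fold changes had a median of -0.26 and ran from -0.85 for EEF1A2 to -0.18 for EEF1A1.

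Under GDC0068, 9 of the 68 factor genes fell and none rose at the same threshold, while 1.88% of all genes fell and 1.70% rose. These were EEF1A2, EEF1D, EEF1G and EEF2 of the elongation machinery, EIF3D and EIF3K of eIF3, EIF4E and EIF4G3 of the cap complex, and EIF4EBP1. Their median log2 fold change was -0.28, and the median over all 68 was -0.13, against 0.0099 over all genes. In 48 of the 68, both GDC0068 libraries lay below both DMSO libraries, against 24.0% of all genes. At an unadjusted p under 0.05, 37 factor genes passed, when 20.0% of all genes did. None of the 9 calls held in every setting run. Leaving out a DMSO or GDC0068 library leaves 1 in that arm, and calls then became fewer over all genes too. DESeq2 lost EIF3D and EIF4E, when 3.95% of all genes were called in either direction. Upper-quartile scaling lost EIF4G3, when 3.55% were, and those 3 were lost with only the 4 libraries compared, when 2.66% were. All 9 kept their sign each time. Each of the 9 genes also fell under Degrader, but the contrasts share the DMSO libraries, so the counts are not independent of each other.

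Adding the replicate number to the fit as a block raised the counts in both contrasts. Under Degrader, 43 factor genes fell and 4 rose, when 15.7% of all genes fell and 15.1% rose in that fit (30.7% in all). Under GDC0068, 29 fell and 3 rose, when 8.91% of all genes fell and 8.87% rose (17.8% in all). The number of calls also depended on single libraries. With a library left out, the fall under Degrader was called for 7 factor genes without DMSO library 1, for 15 without DMSO library 2, for 19 without Degrader library 1 and for 6 without Degrader library 2, while 4.67% to 9.16% of all genes were called in either direction in these fits. All 32 genes called in the full fit kept their sign each time. EEF1A2, EEF1AKMT4, EEF1D, EEF1G, EIF4A1 and EIF4EBP1 passed under Degrader in every setting run.

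**Figure D1:**
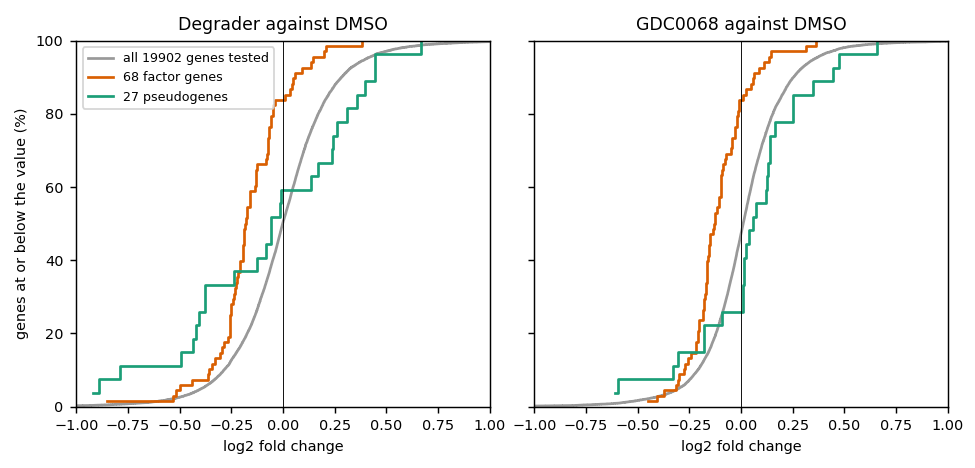
Cumulative share of genes (vertical axis, %) at or below each log2 fold change (horizontal axis), for Degrader and GDC0068 against DMSO, over all 19902 genes tested, the 68 factor genes and the 27 pseudogenes. The curve of the factor genes lies to the left of the curve of all genes in both panels (medians -0.18 and -0.13 against -0.0014 and 0.0099), while the pseudogenes spread on both sides of 0.

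Summed over the 69 factor genes, transcription amounted to 6073 and 6141 CPM in the DMSO libraries, 5587 and 5542 CPM under GDC0068, and 5444 and 5341 CPM under Degrader. Both compounds lay below both controls, with no overlap, and the arm means were 91.1% of DMSO for GDC0068 and 88.3% for Degrader. The sums of the groups differed in their distance from DMSO. As a percentage of DMSO, the sum of the eEF1 complex was lowest, at 82.3% under GDC0068 and 77.6% under Degrader. The eIF5A group lay near it under Degrader, at 78.9%, and was at 95.1% under GDC0068. The Degrader libraries were at 80.3% and 77.4% for eIF5A and at 78.9% and 76.3% for eEF1. The sum of the 4 eIF2 alpha kinases was at 102% under GDC0068 and 103% under Degrader. The 4 scanning factors summed to 100% of DMSO under GDC0068 and 95.3% under Degrader.

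**Figure D2:**
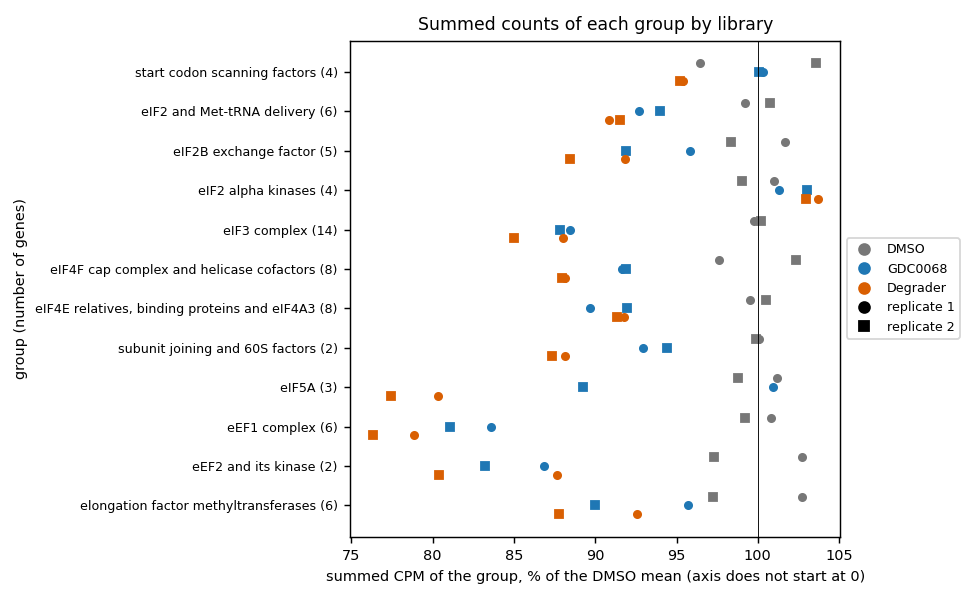
Summed CPM of each group of factor genes in each library, as a percentage of the mean of the DMSO libraries (horizontal axis, which does not start at 0); circles are replicate 1 and squares replicate 2, and the number of genes is in brackets. The eEF1 complex sits between 76.3% and 83.6% in the 4 treated libraries, and the eIF2 alpha kinases sit between 101% and 104%.

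Start sites were read from the RefSeq promoter table of GRCh38.p14, which holds 250 bases before and 50 after a gene's start. Of the 69 factor genes, 55 matched by name, EEF1AKNMT through its current symbol METTL13, and 28 of the 55 had a deposited start within 10 bp of the RefSeq start. The 55 are 79.7% of the factor genes, under the 80% set here for a check over a set, and EEF1A2, EEF1D, EIF2AK1, EIF2S2, EIF3A, EIF3CL, EIF3E, EIF3G, EIF3H, EIF3L, EIF4EBP1, EEF1AKMT1, EEF1AKMT3 and EEF2KMT were not used here, so the shares below are void as a comparison and are given as a description. A TOP-like start, meaning a C at the start base followed by 4 more C or T, was found in 12 of the 55 promoters (21.8%) and in 5.16% of the 11401 promoters matched to genes tested. The start sites of all 12 are printed so that the tracts can be compared: each line gives 20 bases before the start and the first 10 transcribed bases, 5′ to 3′, with the unbroken run of pyrimidines from the start base in capitals.
EEF1A1: cagtagtcgccgtgaacgttCTTTTTCgca
EEF2: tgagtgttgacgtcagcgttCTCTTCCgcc
EIF4B: cgtgattgcctcatccgggtCTTTTgcgtt
EIF4A2: gggtggttgggcgccgctgtCTTTTCagtc
EIF3D: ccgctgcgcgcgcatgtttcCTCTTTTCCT
EIF3K: gtcgtttccgtttccaccacCTCTTCCTgt
EIF3M: gcgtcgcgcggcccagttccCTTTTCCggt
EIF2S3: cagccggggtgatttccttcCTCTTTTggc
EIF2S3B: cagccggggtgactttcttcCTCTTTTggc
EIF3F: gtcatttccgcttccgcctcCTTCTTTCTC
EIF2A: aactctcacccgagcggtttCTCTTTCCgg
EIF2D: gccctggtttccagccgggcCCTTTTCgcg
Of these 12 genes, 7 fell under Degrader and EIF4A2, EIF2S3B, EIF3F, EIF2A and EIF2D did not pass the test. Of all 68 factor genes tested 45.6% fell, and of all genes tested 7.88% did. Log2 fold changes over the 12 ran from -0.27 to 0.20 (median -0.18). Of the 42 tested genes with another start, 15 fell, with a median of -0.16. They include EEF1B2 and EEF1G, which the list of TOP mRNAs given further below counts as TOP, so the 2 definitions differ. The deposited start minus the RefSeq start was 286 and 30 bp for these 2 genes. For EIF3C, EIF4E3 and EIF4G3, also scored with another start, it was 22916, 29373 and -65510 bp. For EIF5A, EIF4G2 and EIF4EBP3, scored in the same way, it was 538, -927 and -134 bp. The scores of these genes describe the RefSeq start and not the deposited one. The windows are, in the order printed, chr6:73521023-73521052 (minus), chr19:3985454-3985483 (minus), chr12:53006436-53006465 (plus), chr3:186783557-186783586 (plus), chr22:36529157-36529186 (minus), chr19:38619168-38619197 (plus), chr11:32583811-32583840 (plus), chrX:24054936-24054965 (plus), chr12:10505870-10505899 (plus), chr11:7987317-7987346 (plus), chr3:150546767-150546796 (plus) and chr1:206612456-206612485 (minus), in the coordinates of GRCh38.p14. The EIF4B tract is the shortest of them, with 5 pyrimidines, and the tracts of EIF3D and EIF3F fill all 10 bases.

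The palindrome CACGTG, the E-box letters that MYC and related factors bind, occurred in 14 of the 55 promoters (25.5%) and in 10.2% of the 11401. It reads alike on both strands. Other letters searched on both strands were TATAAA, found in 3 of 55 (5.45%) against 5.72%, GTAAACA, the FOXO letters, in 1 of 55 (1.82%) against 2.34%, and TGATGCAA, the composite element of ATF4 and CEBP factors, in 0 of 55 against 0.447%. No CACGTG match printed here overlaps a match of another motif. Of the 14 genes with a match, 7 fell under Degrader and 7 did not pass. Of the 40 tested genes without one, 15 fell. Of all 68 factor genes tested 45.6% fell, and of all genes tested 7.88% did. Whether genes with and without a match differ was not tested. The 100 bases before the start are shown for the 8 genes with a match inside them, with CACGTG in capitals.
EEF2K: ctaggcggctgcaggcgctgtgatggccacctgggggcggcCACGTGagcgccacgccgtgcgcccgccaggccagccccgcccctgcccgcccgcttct
EIF4E: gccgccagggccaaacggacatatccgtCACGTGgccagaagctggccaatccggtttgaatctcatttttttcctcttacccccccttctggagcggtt
EIF4G1: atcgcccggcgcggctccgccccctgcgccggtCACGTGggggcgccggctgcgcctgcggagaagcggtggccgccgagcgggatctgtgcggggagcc
EIF4B: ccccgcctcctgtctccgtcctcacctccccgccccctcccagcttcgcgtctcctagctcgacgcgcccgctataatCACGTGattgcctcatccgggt
EEF1AKMT4: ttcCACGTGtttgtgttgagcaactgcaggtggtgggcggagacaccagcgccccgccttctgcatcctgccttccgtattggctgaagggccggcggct
EIF1B: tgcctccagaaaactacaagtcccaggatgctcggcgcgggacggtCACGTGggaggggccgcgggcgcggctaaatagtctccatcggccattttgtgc
EIF3F: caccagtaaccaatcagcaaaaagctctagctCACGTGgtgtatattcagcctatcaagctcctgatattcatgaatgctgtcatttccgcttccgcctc
EIF4EBP3: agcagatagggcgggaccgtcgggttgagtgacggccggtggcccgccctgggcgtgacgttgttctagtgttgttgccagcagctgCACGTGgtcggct
They lie at chr16:22206178-22206277 (plus), chr4:98929134-98929233 (minus), chr3:184314506-184314605 (plus), chr12:53006356-53006455 (plus), chr3:184249572-184249671 (plus), chr3:40309607-40309706 (plus), chr11:7987237-7987336 (plus) and chr5:140547562-140547661 (plus) of GRCh38.p14. The first 5 of these genes fell under Degrader, and EIF1B, EIF3F and EIF4EBP3 did not pass. In the promoters of EIF4E, EIF4G1 and EEF1AKMT4 a second match lies further upstream, at positions -225, -144 and -229 counted from the start. A match of letters is a description, and factor binding was not measured.

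The largest fall of any factor gene was in the eEF1 group. All 6 genes of the eEF1 group had log2 fold changes below 0 under Degrader, with a median of -0.34, and 4 of them fell: EEF1A2, EEF1D, EEF1G and EEF1A1. Under GDC0068, EEF1A2, EEF1D and EEF1G fell, and the median was -0.25. With the replicate block, all 6 fell under Degrader and 3 under GDC0068. The share of all genes that fell applies beside this and each later group. It was 7.88% under Degrader and 1.88% under GDC0068, and 15.7% and 8.91% with the block.

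EEF1A2 encodes the form of eEF1A that is normally restricted to muscle and nerve and is amplified or raised in some breast and ovarian cancers. Its interval covers chromosome 20 from 63488014 to 63499083 on the minus strand in the table's coordinates, for which the table gives no genome build. It had 81.1 and 79.4 CPM in the DMSO libraries, 56.9 and 60.5 CPM under GDC0068, and 41.9 and 47.1 CPM under Degrader. The 3 arms were fully separated, in the order DMSO, GDC0068, Degrader. EEF1A2 fell by 44.6% under Degrader (log2 fold change -0.85, SE 0.0649, edgeR adjusted p = 5.42e-05). Under GDC0068, EEF1A2 fell by 0.45 on the log2 scale (SE 0.0638, edgeR adjusted p = 0.00702). In the direct comparison of the compounds it was lower under Degrader by a log2 fold change of -0.40 (95% interval -0.55 to -0.26, edgeR adjusted p = 0.0346), the only factor gene called there, when 0.266% of all genes were called. That call was lost in the edgeR fit of only the 4 libraries compared (adjusted p = 0.0713), when 0.116% of all genes were called. It was also lost on leaving out any single library, which leaves 1 in an arm. The log2 fold changes there ran from -0.49 to -0.31, with the sign unchanged.

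EEF1A1 encodes the ubiquitous form of the same protein, and its start site is the first of the TOP-like windows above. It had 180.4 and 187 CPM in the DMSO libraries, 178 and 170.0 CPM under GDC0068, and 159.5 and 165 CPM under Degrader. EEF1A1 fell by 11.7% under Degrader (log2 fold change -0.18, SE 0.0503, edgeR adjusted p = 0.0339). Under GDC0068 its log2 fold change was -0.078 (adjusted p = 0.419) and did not pass, with both GDC0068 libraries a little below both controls. EEF1A1 has many processed pseudogenes, and the counting of reads that match several copies is not given in the sources used here. In both EEF1A genes both Degrader libraries lay below both GDC0068 libraries, which was so for 22.9% of all genes.

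EEF1D and EEF1G encode the delta and gamma subunits of eEF1B, the exchange factor that reloads eEF1A with GTP. EEF1D had 189 and 183 CPM in the DMSO libraries, 144 and 138 CPM under GDC0068, and 145 and 130.3 CPM under Degrader. EEF1D fell by 26.2% under Degrader (log2 fold change -0.44, SE 0.0573, edgeR adjusted p = 0.000746). Under GDC0068, EEF1D fell by 0.40 on the log2 scale (SE 0.0573, edgeR adjusted p = 0.00702). All 4 treated libraries of EEF1D lay below both controls, and the compounds overlapped. EEF1G had 163 and 155 CPM in the DMSO libraries, 124 and 122 CPM under GDC0068, and 129 and 119.5 CPM under Degrader. EEF1G fell by 21.8% under Degrader (log2 fold change -0.36, SE 0.0537, edgeR adjusted p = 0.00162). Under GDC0068, EEF1G fell by 0.37 on the log2 scale (SE 0.0538, edgeR adjusted p = 0.00765). EEF1G showed the same arrangement of libraries. The compounds differed by -0.033 for EEF1D (95% interval -0.16 to 0.093) and by 0.016 for EEF1G (-0.10 to 0.13). The EEF1D interval overlaps another on the opposite strand and that of EEF1G holds a microRNA gene.

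EEF1B2, the catalytic exchange subunit, whose interval overlaps SNORA41 on the same strand, was thinly covered, at 8.99 to 13.0 CPM. Its log2 fold change under Degrader was -0.33 (SE 0.127, adjusted p = 0.102) and did not pass, although both Degrader libraries lay below the controls. With the replicate block it passed (adjusted p = 0.0282). EEF1E1, a scaffold protein of the aminoacyl-tRNA synthetase complex that shares a fold with eEF1B subunits, had a log2 fold change of -0.17 under Degrader (adjusted p = 0.161, and 0.0365 with the block).

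**Figure D3:**
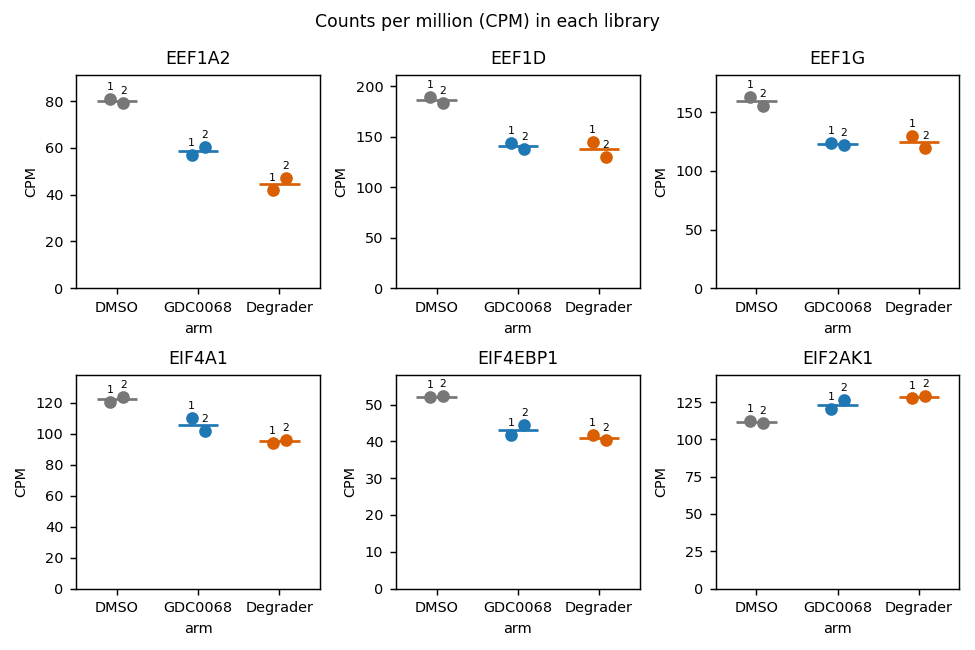
CPM (counts per TMM-scaled library total) in each library for 6 factor genes, by arm; points are libraries with their replicate number, and lines are arm means. EEF1A2 steps down from 81.1 and 79.4 CPM through 56.9 and 60.5 CPM to 41.9 and 47.1 CPM, EEF1D, EEF1G and EIF4EBP1 sit at like levels under both compounds, and EIF2AK1 is higher in the treated libraries.

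EEF2, the translocase, and EEF2K, the kinase that inhibits it by phosphorylation, both fell under Degrader. EEF2 had 195 and 190.4 CPM in the DMSO libraries, 163 and 155 CPM under GDC0068, and 169 and 155 CPM under Degrader. EEF2 fell by 15.9% under Degrader (log2 fold change -0.25, SE 0.0552, edgeR adjusted p = 0.0114). Under GDC0068, EEF2 fell by 0.28 on the log2 scale (SE 0.0553, edgeR adjusted p = 0.0240). The treated libraries of EEF2 all lay below both controls, and those of the compounds overlapped. The EEF2 interval overlaps the small nucleolar RNA gene SNORD37 on the same strand, which the counting may have included. EEF2K had 116 and 104 CPM in the DMSO libraries, 99.9 and 96.6 CPM under GDC0068, and 96.1 and 88.2 CPM under Degrader. EEF2K fell by 16.3% under Degrader (log2 fold change -0.26, SE 0.0621, edgeR adjusted p = 0.0178). Its log2 fold change under GDC0068 was -0.16 (adjusted p = 0.166), and with the replicate block it passed (0.00386). The factor and its inhibitor thus both lay below DMSO in every treated library.

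The genes of the methyltransferases that modify elongation factors split. EEF1AKMT4, named for a lysine of eEF1A, had 54.9 and 47.0 CPM in the DMSO libraries, 43.6 and 38.6 CPM under GDC0068, and 37.3 and 33.3 CPM under Degrader. EEF1AKMT4 fell by 30.8% under Degrader (log2 fold change -0.53, SE 0.0889, edgeR adjusted p = 0.00280). EEF2KMT, which modifies eEF2, had 36.0 and 30.7 CPM in the DMSO libraries, 27.8 and 26.4 CPM under GDC0068, and 24.9 and 22.4 CPM under Degrader. EEF2KMT fell by 29.2% under Degrader (log2 fold change -0.50, SE 0.0941, edgeR adjusted p = 0.00534). EEF1AKMT4 was lower by more than any other tested factor gene but EEF1A2, and EEF2KMT by more than all but those 2 and EIF5A2. Under GDC0068 neither EEF1AKMT4 nor EEF2KMT passed, with adjusted p-values of 0.0727 and 0.100, and both passed with the block (0.000184 and 0.00401). The remaining 4, EEF1AKMT1, EEF1AKMT2, EEF1AKMT3 and EEF1AKNMT, had log2 fold changes of -0.071 to 0.049 under Degrader and none passed. EEF1AKMT4 overlaps CAMK2N2, and EEF2KMT overlaps ALG1, on the opposite strand; the use of strand in the counting is not given in the sources used here.

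The eIF4F group, which recognises the cap and unwinds the leader, fell at 5 of 8 genes under Degrader (7 with the block) and at 2 under GDC0068 (6 with the block). Its medians were -0.20 and -0.17. EIF4A1, the main helicase, had 120.4 and 124 CPM in the DMSO libraries, 109.8 and 101 CPM under GDC0068, and 94.0 and 96.2 CPM under Degrader. EIF4A1 fell by 22.1% under Degrader (log2 fold change -0.36, SE 0.0528, edgeR adjusted p = 0.00136). Under GDC0068 it just missed the threshold, at -0.21 (adjusted p = 0.0507, and 0.000407 with the block). All treated libraries lay below both controls, and both Degrader libraries lay below both GDC0068 libraries.

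EIF4A2, a close relative of EIF4A1, had 368 and 415 CPM in the DMSO libraries, 387 and 392 CPM under GDC0068, and 345 and 367 CPM under Degrader. Its log2 fold changes were -0.14 under Degrader (adjusted p = 0.183) and -0.0081 under GDC0068 (0.963), and the DMSO libraries differed from each other by more than the arms did. With the block the fall under Degrader passed (0.00726). Both helicase intervals hold small nucleolar RNA genes on the same strand, which the counting may have included.

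EIF4E, the cap-binding protein, and the scaffolds EIF4G1 and EIF4G3 fell under Degrader. EIF4E had 56.0 and 57.3 CPM in the DMSO libraries, 48.1 and 47.8 CPM under GDC0068, and 49.3 and 47.4 CPM under Degrader. EIF4E fell by 14.7% under Degrader (log2 fold change -0.23, SE 0.0554, edgeR adjusted p = 0.0179). Under GDC0068, EIF4E fell by 0.24 on the log2 scale (SE 0.0555, edgeR adjusted p = 0.0391). The treated libraries all lay below the controls, and the compounds overlapped, with a difference of 0.012 (95% interval -0.11 to 0.13). EIF4G1 had 363 and 368 CPM in the DMSO libraries, 326 and 325 CPM under GDC0068, and 321 and 299 CPM under Degrader. EIF4G1 fell by 15.3% under Degrader (log2 fold change -0.24, SE 0.0542, edgeR adjusted p = 0.0127). Here too the treated libraries all lay below the controls. EIF4G3 had 271 and 284 CPM in the DMSO libraries, 235 and 241 CPM under GDC0068, and 238 and 239 CPM under Degrader. EIF4G3 fell by 14.0% under Degrader (log2 fold change -0.22, SE 0.0510, edgeR adjusted p = 0.0152). Under GDC0068, EIF4G3 fell by 0.22 on the log2 scale (SE 0.0510, edgeR adjusted p = 0.0403). EIF4G1 did not pass under GDC0068 (-0.17, adjusted p = 0.112, and 0.00177 with the block).

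EIF4G2, a scaffold relative that lacks the eIF4E-binding site and serves cap-independent initiation, did not pass in either contrast. It had 114 and 128 CPM in the DMSO libraries, 122 and 127 CPM under GDC0068, and 122 and 126 CPM under Degrader, so treated and control libraries overlapped. Its log2 fold changes were 0.036 (95% interval -0.095 to 0.17) under Degrader and 0.046 (-0.086 to 0.18) under GDC0068. These intervals lie above the point estimates of EIF4G1 and EIF4G3. The deposited interval of EIF4G2 overlaps the small nucleolar RNA gene SNORD97 on the same strand, which the counting may have included. Of the helicase cofactors, EIF4B fell under Degrader (-0.19, adjusted p = 0.0262) and EIF4H did not pass (-0.12, adjusted p = 0.0999).

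Among the proteins that bind eIF4E, 1 of the 3 4E-BP genes fell. These proteins hold eIF4E away from eIF4G until mTORC1 phosphorylates them. EIF4EBP1 had 51.9 and 52.2 CPM in the DMSO libraries, 41.7 and 44.4 CPM under GDC0068, and 41.7 and 40.2 CPM under Degrader. EIF4EBP1 fell by 21.3% under Degrader (log2 fold change -0.35, SE 0.0602, edgeR adjusted p = 0.00347). Under GDC0068, EIF4EBP1 fell by 0.27 on the log2 scale (SE 0.0601, edgeR adjusted p = 0.0339). EIF4EBP2 had -0.059 under Degrader (95% interval -0.22 to 0.11) and EIF4EBP3 -0.069 (-0.26 to 0.12), and neither passed in either contrast. The cap-binding protein and its repressor EIF4EBP1 were both lower under both compounds, and the difference between the compounds for EIF4EBP1 was -0.072 (95% interval -0.21 to 0.061). EIF4ENIF1, the transporter that carries eIF4E into the nucleus, also fell under Degrader (-0.19, adjusted p = 0.0261), and under GDC0068 it passed with the block alone (-0.15, adjusted p = 0.0109).

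EIF4A3, a helicase of the exon junction complex, and the eIF4E relatives EIF4E2 and EIF4E3 did not pass under Degrader, at log2 fold changes of -0.16, 0.060 and -0.058, and with the block EIF4A3 passed (adjusted p = 0.0245). Under GDC0068 EIF4A3 had -0.18 and did not pass, whereas with the block it did (adjusted p = 0.0230). EIF4E1B, a relative known from germ cells, had the highest point estimate of the group. It had 8.53 and 6.91 CPM in the DMSO libraries, 11.1 and 8.87 CPM under GDC0068, and 10.5 and 9.71 CPM under Degrader, and all treated libraries lay above both controls. Its log2 fold changes of 0.38 (SE 0.144, adjusted p = 0.0981) and 0.36 (0.190) did not pass, and with the block they did (0.00889 and 0.0223).

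**Figure D4:**
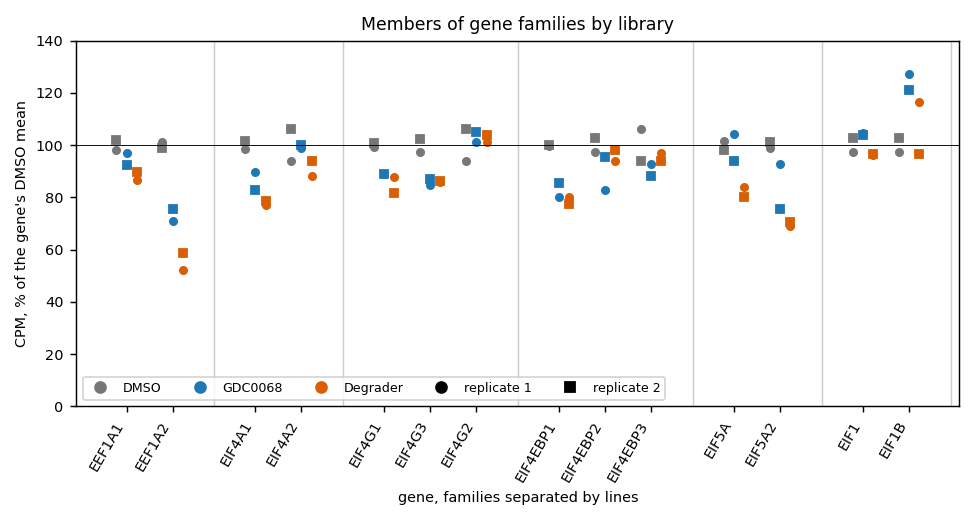
CPM in each library as a percentage of the gene's own DMSO mean (vertical axis), for 6 families of related genes; circles are replicate 1 and squares replicate 2. EEF1A2 lies below EEF1A1, EIF4A1 below EIF4A2, and EIF4EBP1 below its relatives in the Degrader libraries, while EIF4G2 lies near 100% beside EIF4G1 and EIF4G3.

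The eIF3 complex, the largest initiation factor, fell across its subunits by small amounts. Under Degrader, 9 of 14 subunit genes fell and all 14 had log2 fold changes below 0, with a median of -0.21; 12 fell with the block. The falls were EIF3G (-0.30), EIF3I (-0.30), EIF3K (-0.27), EIF3B (-0.26), EIF3M (-0.26), EIF3A (-0.25), EIF3CL (-0.21), EIF3H (-0.21) and EIF3D (-0.19), with adjusted p-values from 0.00801 to 0.0448 in the edgeR fit. They include the scaffold subunits EIF3A and EIF3B and the RNA-binding subunit EIF3G. The EIF3A interval overlaps the small nucleolar RNA gene SNORA19 on the same strand. That of EIF3CL overlaps MIR6862-1 on the same strand, and that of EIF3G overlaps P2RY11 on the opposite one. Of the 69 factor genes, 25 overlap another interval, 17 of them on the same strand, and not every overlap is named in the text. They include EIF4B, on both strands, and EIF2B2, on the opposite strand. EIF3C and EIF3CL are near-identical copies whose reads cannot be assigned with certainty, so the call of EIF3CL stands beside a log2 fold change of -0.19 for EIF3C (adjusted p = 0.0643) and is uncertain.

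Under GDC0068, EIF3D and EIF3K fell, and 9 subunits fell with the block; the median over 14 was -0.18. EIF3D, a subunit that can itself bind caps, had 82.9 and 83.3 CPM in the DMSO libraries, 71.0 and 71.7 CPM under GDC0068, and 74.2 and 71.8 CPM under Degrader. Under GDC0068, EIF3D fell by 0.22 on the log2 scale (SE 0.0499, edgeR adjusted p = 0.0369). Its treated libraries lay close together, all below the controls. EIF3K, a peripheral subunit, had 82.7 and 77.5 CPM in the DMSO libraries, 65.7 and 64.2 CPM under GDC0068, and 68.6 and 64.6 CPM under Degrader. EIF3K fell by 16.8% under Degrader (log2 fold change -0.27, SE 0.0564, edgeR adjusted p = 0.00943). Under GDC0068, EIF3K fell by 0.30 on the log2 scale (SE 0.0566, edgeR adjusted p = 0.0179). Its treated libraries were likewise all below the controls. The smallest change in the group under Degrader was that of EIF3E, at -0.074 (95% interval -0.19 to 0.039). The deposited interval of EIF3F is only 629 bp, the shortest of the factor genes, and its SE of 0.153 was larger than the median SE of 0.059 over factor genes.

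In the eIF2 group, the 3 subunits of eIF2 itself fell under Degrader, and the other genes did not pass. EIF2S1, the alpha subunit that is phosphorylated under stress, had 89.4 and 91.6 CPM in the DMSO libraries, 85.5 and 83.4 CPM under GDC0068, and 78.4 and 75.1 CPM under Degrader. EIF2S1 fell by 15.2% under Degrader (log2 fold change -0.24, SE 0.0507, edgeR adjusted p = 0.00957). EIF2S2, the beta subunit, and EIF2S3, the gamma subunit, fell by log2 values of 0.19 and 0.22 (adjusted p = 0.0342 and 0.0159). Under GDC0068 none of the 3 passed, at -0.10, -0.13 and -0.16, and with the block EIF2S2 and EIF2S3 passed (0.0112 and 0.00798). EIF2A and EIF2D, which can deliver initiator tRNA without eIF2, had -0.048 and 0.14 under Degrader and did not pass, whereas with the block EIF2D rose (adjusted p = 0.0300). Under GDC0068 EIF2A had -0.13 (adjusted p = 0.174, and 0.0274 with the block). EIF2S3B, a retrocopy of EIF2S3, was thinly covered and did not pass either (0.20, SE 0.194).

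Of the 5 subunits of eIF2B, which reloads eIF2 with GTP, EIF2B2 fell under Degrader (-0.23, adjusted p = 0.0277) and none passed under GDC0068. At an unadjusted p under 0.05, 2 of the 5 subunits passed under GDC0068, when 20.0% of all genes did. The group medians were -0.16 and -0.086, and with the block 3 fell under Degrader and 1 under GDC0068. EIF2B3, the gamma subunit, had -0.19 (adjusted p = 0.0584, and 0.000959 with the block), and EIF2B5, the catalytic subunit, had -0.073 (95% interval -0.19 to 0.040).

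The kinases that phosphorylate eIF2 alpha and so slow initiation gave 1 rise and no fall under Degrader. EIF2AK1, the haem-regulated inhibitor HRI, was the only factor gene that rose. Its interval covers chromosome 7 from 6022247 to 6059175 on the minus strand in the deposited table. It had 112 and 111 CPM in the DMSO libraries, 120.1 and 126 CPM under GDC0068, and 128 and 129 CPM under Degrader, so all treated libraries lay above both controls. EIF2AK1 rose by 15.4% under Degrader (log2 fold change 0.21, SE 0.0482, edgeR adjusted p = 0.0147). Under GDC0068 it did not pass (0.15, adjusted p = 0.123) and with the block it did (0.00635). The interval overlaps the signal recognition particle pseudogene RN7SL851P on the same strand and the synthetase scaffold gene AIMP2 on the opposite one, and without stated use of strand their reads cannot be told apart. On leaving out either DMSO library or either Degrader library the call was lost.

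EIF2AK3, the endoplasmic reticulum kinase PERK, had 0.14 under Degrader (adjusted p = 0.122, and 0.0256 with the block). EIF2AK4, the amino acid sensor GCN2, had -0.13 (0.0922, and 0.00789 with the block), and EIF2AK2, the RNA sensor PKR, had -0.077 (0.438). The 4 point estimates lay on both sides of 0, and their median was 0.029.

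None of the 4 start codon scanning factors passed in either contrast. In each, 1 had an unadjusted p under 0.05, when 29.9% of all genes did under Degrader and 20.0% under GDC0068. EIF1, which guards start codon fidelity, had 198 and 209 CPM in the DMSO libraries, 213 and 211 CPM under GDC0068, and 196 and 197 CPM under Degrader, and its log2 fold changes were -0.050 and 0.059. EIF5, the GTPase activator of eIF2, had -0.083 and -0.096, and EIF1AX, which works beside EIF1, had -0.16 (adjusted p = 0.0269 with the block) and -0.048. EIF1AD, a nuclear protein named for its likeness to eIF1A, had 0.0090 and -0.030 and did not pass. EIF1B, a close relative of EIF1, had 14.1 and 14.8 CPM in the DMSO libraries, 18.4 and 17.6 CPM under GDC0068, and 16.9 and 14.0 CPM under Degrader. Both GDC0068 libraries lay above both controls, as in 26.1% of all genes, and its log2 fold change of 0.31 did not pass (adjusted p = 0.131), whereas with the block it did (0.0183).

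EIF6, EIF5A and EIF5A2 fell under Degrader, and neither they nor EIF5B passed under GDC0068. There, none of the 4 had an unadjusted p under 0.05, against 20.0% of all genes. EIF6, which keeps the large subunit from joining too early, fell (-0.26, adjusted p = 0.0177), and EIF5B, the GTPase of subunit joining, did not pass (-0.13, adjusted p = 0.173). EIF5A, which relieves ribosome stalling and carries the amino acid hypusine, had 37.3 and 36.0 CPM in the DMSO libraries, 38.2 and 34.5 CPM under GDC0068, and 30.7 and 29.3 CPM under Degrader. EIF5A fell by 18.0% under Degrader (log2 fold change -0.29, SE 0.0732, edgeR adjusted p = 0.0226). Both Degrader libraries lay below all others while GDC0068 and DMSO overlapped, at a log2 fold change of -0.015 (95% interval -0.17 to 0.14). The direct comparison of the compounds gave -0.27 (95% interval -0.43 to -0.11, adjusted p = 0.143, and 0.00600 with the block). EIF5A2, a second gene for the factor that is amplified in some tumours, had 11.5 and 11.8 CPM in the DMSO libraries, 10.8 and 8.78 CPM under GDC0068, and 8.04 and 8.23 CPM under Degrader. EIF5A2 fell by 30.0% under Degrader (log2 fold change -0.52, SE 0.122, edgeR adjusted p = 0.0160).

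**Figure D5:**
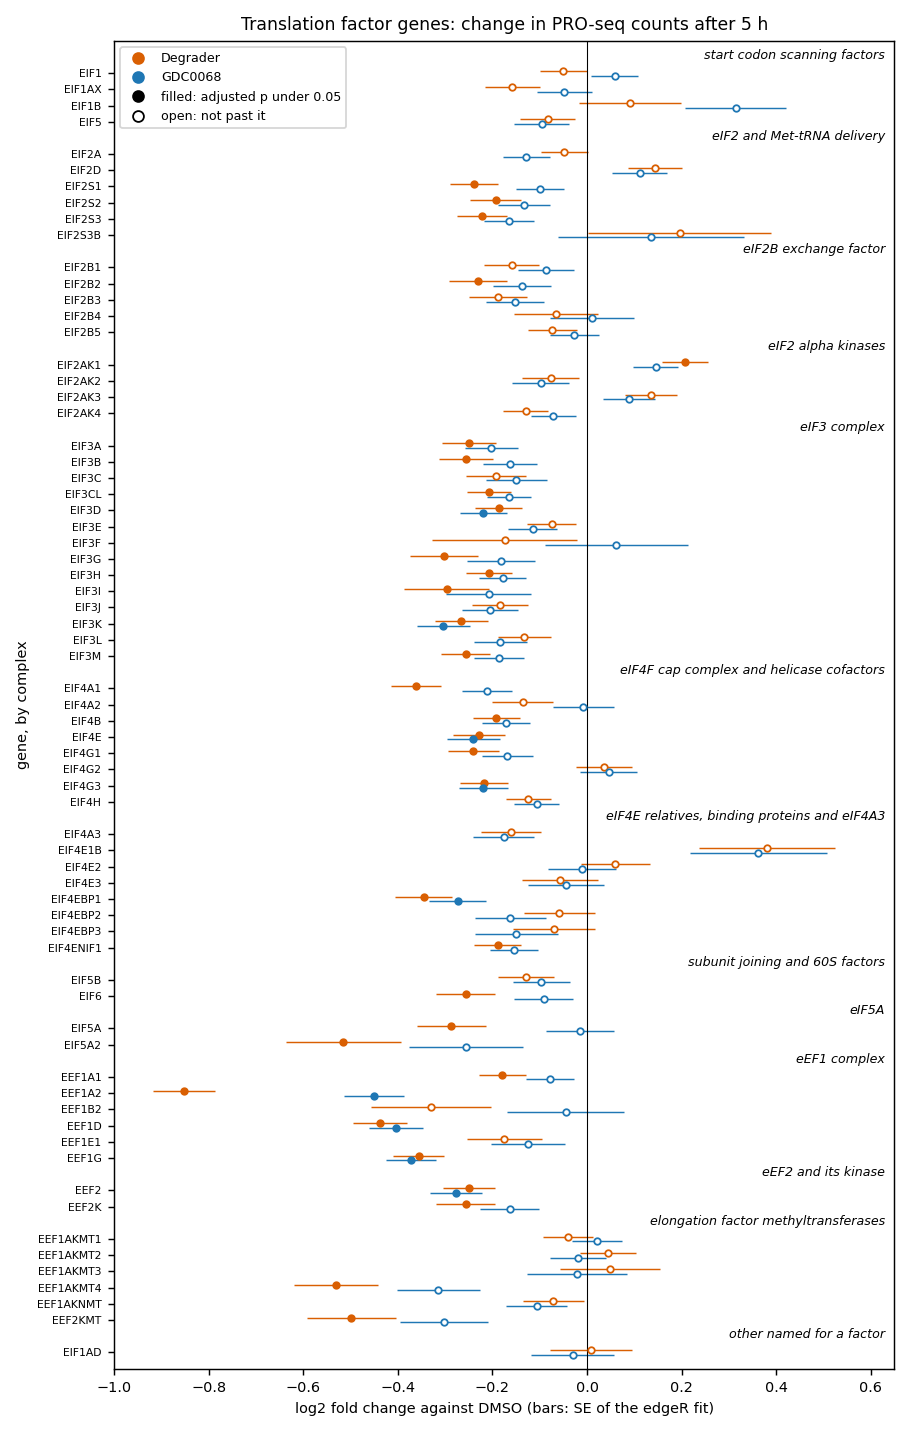
Log2 fold change against DMSO (horizontal axis, with the SE of the edgeR fit as bars) of the 68 factor genes tested, grouped by complex, for Degrader and GDC0068; filled points have an adjusted p under 0.05. Most points of both compounds lie left of 0, EEF1A2 lies farthest left at -0.85 and -0.45, and EIF2AK1 is the only filled point to the right.

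Between the compounds, EEF1A2 was the only one of the 68 factor genes called in the edgeR fit. The median log2 fold change of Degrader against GDC0068 was -0.038 over the 68 factor genes, and 43 lay below 0, against 51.1% of all genes. With the block, EEF1A2, EIF2S1, EIF4A1, EIF4A2, EIF5A, EEF1AKMT4 and EIF1 were lower under Degrader, 7 factor genes in all, and none was higher, when 5.35% of all genes were lower and 5.03% higher (10.4% in all). For the median factor gene the SE of a log2 fold change was 0.059, so differences of the size seen between the compounds for most genes were not detectable with 2 libraries per arm. A missed threshold does not show that the compounds act alike.

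Nascent transcription per length of interval differed widely among factor genes in the DMSO libraries. EIF1 was highest, at 85.2 and 89.7 CPM per kb, followed by EIF4A2 (58.2 and 65.7), EEF1A1 (34.2 and 35.4), EEF2 (20.8 and 20.3), EIF4A1 (19.5 and 20.0) and EIF4G1 (17.5 and 17.7). Each of these lay apart from its neighbours in both libraries, by a margin under 1 CPM per kb between EEF2 and EIF4A1. Levels over short intervals include polymerase held near the start, whose share was not measured. The intervals of EIF4A2, EEF2 and EIF4A1 also overlap small nucleolar RNA genes on the same strand. Of the 6, EEF1A1, EEF2, EIF4A1 and EIF4G1 fell under Degrader, and EIF1 and EIF4A2 did not pass.

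The genes whose mRNAs are textbook TOP mRNAs were also listed from general knowledge: EEF1A1, EEF1B2, EEF1D, EEF1G, EEF2, EIF3E, EIF3F, EIF3H and EIF4B. Of these 9, 6 fell under Degrader (66.7%) and 3 under GDC0068 (33.3%), with medians of -0.21 and -0.17. Of the 68 factor genes, which include these 9, 31 (45.6%) and 9 (13.2%) fell, with medians of -0.18 and -0.13. Over all genes, 7.88% and 1.88% fell. Whether the TOP list differs from the other factor genes was not tested.

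Of the 27 pseudogenes, 3 were called under Degrader (11.1%) and none under GDC0068, when 15.3% and 3.58% of all genes were. The pseudogenes were thinly covered, with at most 81 counts in a library for the median pseudogene. Their median log2 fold changes were -0.058 under Degrader and 0.060 under GDC0068. Under Degrader, EEF1A1P13 and EEF1DP7 rose (0.45 and 0.67, adjusted p = 0.0288 and 0.0411) and EEF1A1P11 fell (-0.92, adjusted p = 0.0468). Under GDC0068 none passed, and 2 rose with the block (7.41%, against 8.87% of all genes). Under GDC0068, 20 of the 27 had log2 fold changes above 0, and 7 below, against 47.4% of all genes below. The sum over the 27 was 88.7 and 90.8 CPM for DMSO, 104 and 96.8 CPM for GDC0068 and 91.6 and 93.8 CPM for Degrader, so both GDC0068 libraries lay above both controls, at 112% of DMSO on average. EEF1DP7 lies within MAP3K3, whose nascent transcripts its count can include. Neither divergent transcript, EIF3J-DT nor EIF2AK3-DT, passed in a contrast. With these included, 35 of 97 members were called under Degrader, 3 higher and 32 lower, when 15.3% of all genes were called, and 9 under GDC0068, when 3.58% were.

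Other genes of the pathway, from a list of 32 regulators and partners written for this comparison, were tested in the same fit. Of the 31 tested, 5 fell and 1 rose under Degrader, a share of 19.4% called against 15.3% of all genes. Their median was -0.057. None passed under GDC0068 in edgeR. There, 11 of the 31 had an unadjusted p under 0.05, a larger share than the 20.0% of all genes. The falls were LTV1, a small-subunit assembly factor (-0.57, adjusted p = 0.00381), ABCE1, which recycles ribosomes (-0.34, 0.00556), GCN1, the partner of GCN2 (-0.25, 0.0133), the release factor ETF1 (-0.20, 0.0283) and the poly(A)-binding protein PABPC1 (-0.18, 0.0331). PAIP2, a repressor of PABPC1, rose (0.18, adjusted p = 0.0315). With the block, 11 fell and 3 rose under Degrader, when 30.7% of all genes were called, and 7 fell and 2 rose under GDC0068, when 17.8% were.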

How the data were processed

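PRO-seq was made from T47D cells in 3 arms of 2 libraries. The authors deposited 1 table of counts per gene interval, taken here as raw because its values are whole and its column totals are unequal. Per the submitters' processing notes, cutadapt 1.14, Bowtie 1.2.2, SAMtools 1.3.1, HISAT2 2.2.1 and limma were used and the builds dm3, hg38 and GRCh38 are named, with no role stated. The counting tool, its use of strand, the treatment of duplicates and any scaling to a spike-in are not given in the sources used here, and the table names no build. No spike-in scaling was applied, so a change common to all genes would not be seen and every change is relative to the bulk of genes. Starts are written counting from 1.

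Counts were fitted in R 4.3.3 with edgeR 4.0.16: filterByExpr (minimum count 10, minimum total 15) left 19902 genes, libraries were scaled by TMM (factors 0.997 to 1.003), and glmQLFit with glmQLFTest used all 6 libraries, a term per arm and 3 residual degrees of freedom. Adjusted p-values are Benjamini-Hochberg over all 19902 genes, a gene is called at an adjusted p under 0.05, and adjusted p-values in the text come from this fit where no other is given. CPM use TMM-scaled library sizes, and the SE is the size of the log2 fold change divided by the square root of F. With 2 libraries per arm no permutation test can pass 0.05, so the test rests on the spread shared across genes (common biological coefficient of variation 5.51%). The script was tested on simulated data. The replicate number was added as a block because the series has 2 independent experiments and same-numbered libraries deviated together over all genes (r = 0.177, 0.220 and 0.204 for the 3 pairs of arms), although over the members the correlations were -0.261, -0.358 and 0.240. The sample titles give only a replicate number, so the block may not be the experiment. The libraries may still share technical handling, so p-values measure the spread between these libraries.

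The members, groups and lists were chosen with earlier results of these data known. Genes named are the members called in any contrast, the member of each group with the highest mean CPM, and at most 6 called genes of the pathway list; other members are named to complete their group and were chosen after their values were seen. Alternatives were DESeq2 1.42.0, upper-quartile scaling, no filter, robust estimation, only the 4 libraries compared, leaving out each library, and members without pseudogenes, divergent transcripts and same-strand overlaps. Promoter sequences and motifs were read from RefSeq tables with Python 3.11.15.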

Additional observations from a re-analysis of the deposited data

How the results depend on the processing

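The 32 factor genes called under Degrader kept their sign in each alternative run, and 32 remained called with the replicate block, upper-quartile scaling, no filter, robust estimation and only the 4 libraries compared. With DESeq2, 27 remained called, and EIF2B2, EIF2S2, EIF3D, EIF3I and EIF4ENIF1 were lost. Leaving out each library in turn gave 6 to 35 members and 6 to 33 factor genes called under Degrader, with a median over members of -0.16 to -0.18. Under GDC0068, none of the 9 calls held in every setting. Leaving out any library made calls under GDC0068 fewer, over factor genes and over all genes. The replicate block gave 34 members and 32 factor genes, when 17.8% of all genes were called. The GDC0068 median over members was -0.084 with upper-quartile scaling and -0.13 without pseudogenes, divergent transcripts and same-strand overlaps. Over factor genes it was -0.14 with DESeq2, with no filter and with only the 4 libraries compared, -0.12 with upper-quartile scaling, and -0.12 to -0.14 with a library left out. Between the compounds, the block gave 9 members and 7 factor genes, when 10.4% of all genes were called. The fit of only the 4 libraries compared gave 0, when 0.116% of all genes were called. The EEF1A2 call was also lost with a library left out. The cause of these differences was not tested. The reduced fits changed both the number of libraries and which ones were used, so these cannot be told apart. With 2 libraries per arm and a median SE of 0.059 for factor genes, small changes cannot be resolved, and pseudogenes and other thinly covered intervals least of all. Of 166 log2 fold changes, namely 129 of the 43 members the naming rule gives and 37 of other genes in the contrast the text gives, 23 changed sign in at least 1 alternative, none of them past the threshold there. With a library left out, their ranges against DMSO were EIF1AD -0.085 to 0.090, EEF1AKMT3 -0.094 to 0.17, EIF4E2 -0.013 to 0.12, EIF4EBP3 -0.15 to 0.021, EIF4G2 -0.053 to 0.13 and EIF5 -0.17 to 0.0032 under Degrader, and EEF1DP7 -0.028 to 0.069, EIF4G2 -0.044 to 0.14, EIF4A2 -0.097 to 0.081 and EIF5A -0.090 to 0.051 under GDC0068. Between the compounds they were EEF1A1P13 -0.10 to 0.12, EEF1D -0.11 to 0.037, EEF1G -0.037 to 0.070, EEF2 -0.032 to 0.086, EIF1AD -0.050 to 0.12, EIF2B3 -0.11 to 0.039, EIF3A -0.12 to 0.022, EIF3H -0.062 to 0.0062, EIF3K -0.0011 to 0.078, EIF4B -0.051 to 0.013, EIF4E -0.011 to 0.037, EIF4G3 -0.015 to 0.029 and EIF5B -0.057 to 0.0032. With upper-quartile scaling the GDC0068 value of EIF4A2 became 0.0040, and the values between the compounds became -0.0059 for EEF1A1P13 and -0.0071 for EIF4G3. DESeq2 gave no adjusted p for EEF1A1P11 and EEF1DP7, which have no value in that setting.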
